A study of Homo sapiens with 6 samples.

Results

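The RNA of 10 genes of the SR family of splicing factors (SRSF1 to SRSF7, SRSF9, SRSF10 and SRSF11) was followed in 12Z cells, an immortalized line of epithelial origin from an endometriosis lesion, after knockdown of the long noncoding RNA LINC01133. The genes were taken by name, and each matched 1 Ensembl identifier among the 60660 genes of the count tables. SRSF8 and SRSF12, which belong to the same family by name, were not among the 10 and are described beside them. The study comprised 3 control libraries, whose cells had been given a non-targeting siRNA, and 3 knockdown libraries, whose cells received siRNA LINC01133a (10 nM), described by the study as biological replicates. Polyadenylated RNA was collected 72 h after transfection in both groups. A single siRNA was sequenced and 12Z is one cell line, so an effect of this siRNA and an effect of losing LINC01133 cannot be told apart in these libraries.

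SR proteins bind short sequences in exons and help the spliceosome to recognise the neighbouring splice sites. They carry an RNA-binding domain and a tail rich in arginine and serine, which kinases of the SRPK and CLK families phosphorylate to control where the protein sits and what it binds. Many SR genes also hold a poison exon, a cassette exon with a premature stop codon whose inclusion sends the transcript to nonsense-mediated decay (NMD), and SR proteins use such exons to regulate their own level. In colorectal cancer SRSF6 has been described as a protein partner of LINC01133, which raises the question of whether the RNA of SRSF6 and of its relatives differs once LINC01133 is depleted.

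All 10 genes have at least 1 transcript annotated as an NMD target in GENCODE v44, against 47.5% of the 12565 protein-coding genes tested, and 9 of them have a transcript with a retained intron, against 60.4%. An exon lying wholly within an intron of the MANE Select transcript (the representative transcript of a gene in the annotation) and holding the premature stop was found in 6 of the 10 genes, 11 exons in all. Exons that differ at a single end, as in SRSF7, were counted apart. One from each of 4 genes is shown because the deposited counts are summed over a gene, so that reads of a productive and of a poison-exon transcript fell into the same value. In SRSF6, where 1 was found, it is 268 bases long and lies on the plus strand at chr20:43459153-43459420 of GRCh38. One of the 2 found in SRSF3 is 456 bases long (plus strand, chr6:36599821-36600276), and that of SRSF4 is 175 bases long (minus strand, chr1:29165890-29166064). SRSF7 has 3, which include one of 449 bases (minus strand, chr2:38748898-38749346). Each is printed from its first base to the premature stop codon of the annotated NMD transcript, which is in capitals.
SRSF6: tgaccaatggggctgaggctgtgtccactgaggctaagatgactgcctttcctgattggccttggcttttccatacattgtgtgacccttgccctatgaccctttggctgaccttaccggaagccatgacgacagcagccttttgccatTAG
SRSF3: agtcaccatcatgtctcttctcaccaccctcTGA
SRSF4: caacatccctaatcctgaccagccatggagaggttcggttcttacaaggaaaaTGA
SRSF7: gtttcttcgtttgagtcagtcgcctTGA
The reading frame of the NMD transcript ends 152 bases into the SRSF6 exon shown, and 34, 56 and 28 bases into those of SRSF3, SRSF4 and SRSF7. In the other SRSF3 exon it ends after 82 bases. Whether these exons were included more or less often after knockdown cannot be read from gene counts.

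The target RNA fell as the labels state. LINC01133 (ENSG00000224259.7) spans positions 159958035 to 159984750 of chromosome 1 in GRCh38 (plus strand), and siRNA LINC01133a matches it from 159976669 to 159976687, in an exon of 3 of its 5 annotated transcripts. Its level was 25.1, 25.3 and 25.9 CPM (counts scaled to a fixed library total) in control cells, as against 4.01, 4.05 and 4.28 CPM after knockdown, which leaves 16.1% of the control level. Library depth was 27742562 to 37551194 counts on genes. Of the markers of an epithelial cell, the keratins KRT8, KRT18 and KRT19 were abundant (1235 to 3230 CPM on average in control libraries), while EPCAM and CLDN4 were near 0 (0.421 and 0.456 CPM). All 6 stromal markers were also detected, with COL1A1 at 2710 CPM, so the RNA did not show an epithelial profile alone. The summed level of the 7 epithelial markers came mostly from KRT8, KRT18 and KRT19. It was 6179 to 6514 CPM in control and 3947 to 4132 CPM in knockdown libraries. The sum of the stromal markers was 3456 to 3960 and 3292 to 3393 CPM. The part of these shifts in the results that follow was not tested. In a bulk library, fewer cells of a state and less RNA per cell cannot be told apart. The study could not reproduce a fall of KRT7 and KRT19 in its own follow-up measurements.

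The SR genes changed in both directions and by small amounts. SRSF6, SRSF5, SRSF11 and SRSF7 were higher in knockdown cells, SRSF9, SRSF1 and SRSF3 were lower, and SRSF2, SRSF4 and SRSF10 did not pass the test. The largest change was a rise of 24.3% for SRSF6, and the deepest fall was for SRSF9, which decreased by 8.49%. Calls were made by edgeR's quasi-likelihood test across 15155 genes, at an adjusted p under 0.05 after Benjamini-Hochberg correction. Thus 7 of the 10 genes passed, against 48.3% of all genes tested. The 4 that were higher compare with a background of 23.3%, and the 3 that were lower with one of 25%. All 10 are abundant genes, however. Among the 1656 tested genes with a mean CPM at least that of SRSF1, the lowest of the 10, 61.8% passed, 16.2% higher and 45.6% lower, and their median log2 fold change was -0.085. That comparison was chosen after the values were seen. In 7 of 10 genes the CPM values of control and knockdown libraries did not overlap, against 57.3% of all genes (4 higher against 28.3%, and 3 lower against 29%). The median log2 fold change of the 10 genes was 0.0065, and that of all genes tested 0.0032.

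None of the 10 SR genes was differentially expressed (DE) at the cutoffs of the study, which ask for a fold change over 1.5 as well as an adjusted p under 0.05, while 11.7% of all genes tested were (5.3% higher and 6.43% lower). DESeq2 also called 0 of 10 at these cutoffs. Without the cutoff on size, an unadjusted p under 0.05 was given to 7 of 10 genes by edgeR, against 55% of all genes tested, and to 7 of 10 by DESeq2, against 47% of the same genes. The 95% intervals of the 10 fold changes all lay within the 1.5-fold cutoffs in either direction, the widest reaching 35.5% above the control level for SRSF6.

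**Figure D1:**
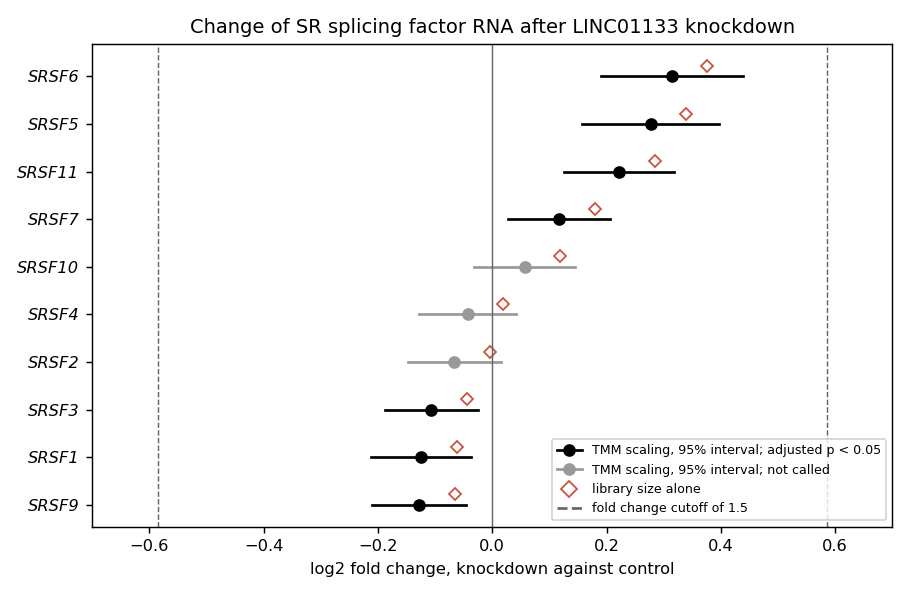
Log2 fold change (x axis, knockdown against control) of each of the 10 SR genes (y axis), with its 95% interval, in black where the adjusted p was under 0.05 and in grey otherwise; open diamonds give the value with library size alone as scaling, and dashed lines the 1.5-fold cutoff. SRSF6 (0.31), SRSF5 (0.28) and SRSF11 (0.22) lie to the right of 0 under both scalings, whereas SRSF9, SRSF1 and SRSF3 come closer to 0 with library size alone.

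SRSF6 (ENSG00000124193), at chr20:43457893-43466046 of GRCh38 (plus strand), encodes a splicing regulator that with SRSF4 and SRSF5 forms a group of closely related SR proteins. Its raw counts were 6017, 4639 and 6105 in control cells and 8185, 7324 and 6524 in knockdown cells. After scaling for depth these were 176, 161 and 195 CPM in control and 214, 220 and 229 CPM in knockdown cells. The lowest knockdown library thus lay above the highest control library, although the control libraries differed among themselves by more than the knockdown libraries did. On the log2 scale the difference was 0.31 (SE 0.057, 95% interval 0.19 to 0.44), and edgeR's adjusted p was 0.000533. It passed in 13 of 13 alternative analyses and ranged from 0.25 to 0.39 in them, the lowest being without control replicate 2 and the highest without control replicate 3.

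SRSF5 (ENSG00000100650, chromosome 14), another member of that group, followed SRSF6 closely. Its level was 164, 152 and 182 CPM in control libraries and 196, 200 and 207 CPM in knockdown libraries. As for SRSF6, control replicate 2 was the lowest and control replicate 3 the highest of the control libraries, and the groups did not overlap. The rise was 21.2% (95% interval 11.6% to 31.7%), or 0.28 on the log2 scale (SE 0.055, edgeR adjusted p = 0.00103). SRSF4 (ENSG00000116350, chromosome 1), the third of the group, had 164, 170 and 156 CPM in control and 161, 157 and 158 CPM in knockdown libraries. Its values overlapped between the groups, its adjusted p was 0.386, and its 95% interval ran from 8.50% below to 2.91% above the control level.

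SRSF11 (ENSG00000116754, chromosome 1), which contacts splicing factors at both ends of an intron, had 316, 294 and 325 CPM in control libraries. In knockdown libraries it had 353, 357 and 380 CPM, all above the control libraries. This is a rise of 16.6% (95% interval 9.08% to 24.6%) or 0.22 on the log2 scale (SE 0.045, edgeR adjusted p = 0.00109). SRSF7 (ENSG00000115875, chromosome 2), which also acts in mRNA export, rose less, by 8.43% (95% interval 1.88% to 15.4%). It had 200, 191 and 211 CPM in control and 215, 214 and 224 CPM in knockdown libraries, so that the groups were separated by a narrow gap. Its adjusted p was 0.0334, and the call was lost when any library but control replicate 3 was left out, with adjusted p values from edgeR of 0.0551 to 0.110.

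**Figure D2:**
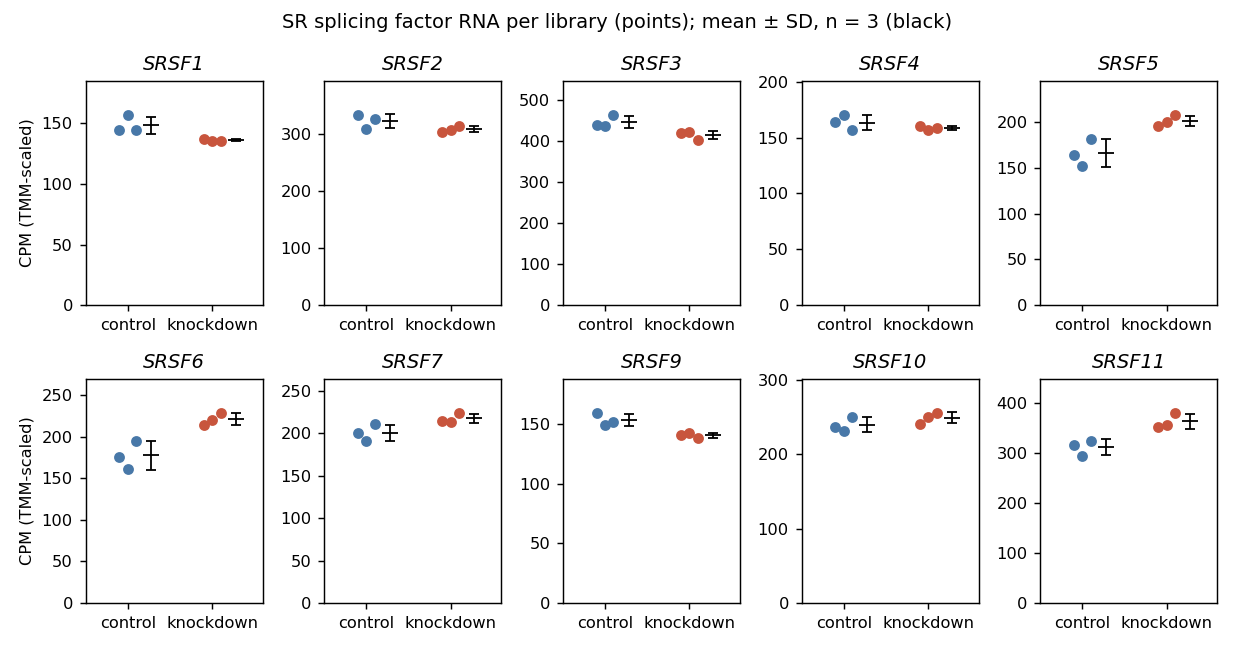
CPM scaled by the TMM method (y axes, each starting at 0) in each control (blue) and knockdown (red) library for the 10 SR genes, with the mean ± SD of 3 libraries in black. The knockdown libraries of SRSF5, SRSF6, SRSF7 and SRSF11 sit above all control libraries, those of SRSF1, SRSF3 and SRSF9 below, and the others overlap.

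The genes that were lower are among the best studied SR genes. SRSF1 (ENSG00000136450, chromosome 17), the founding member of the family and a known oncogene, had 144, 157 and 144 CPM in control and 137, 136 and 135 CPM in knockdown libraries. SRSF3 (ENSG00000112081, chromosome 6), the smallest SR protein, had 439, 437 and 463 CPM in control and 419, 422 and 403 CPM in knockdown libraries. SRSF9 (ENSG00000111786, chromosome 12), a close relative of SRSF1, had 159, 150 and 152 CPM in control and 141, 142 and 138 CPM in knockdown libraries. For each of them all knockdown libraries lay below all control libraries. The log2 fold changes were -0.12 for SRSF1 (adjusted p = 0.0221), -0.11 for SRSF3 (adjusted p = 0.0310) and -0.13 for SRSF9 (adjusted p = 0.0129), all by edgeR.

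These falls were less firm than the rises of SRSF5, SRSF6 and SRSF11. With library size alone as scaling, 0 of the 3 passed (-0.061, -0.044 and -0.066 for SRSF1, SRSF3 and SRSF9), since that scaling raised the median of all genes from 0.0032 to 0.065 on the log2 scale. Leaving out knockdown replicate 1 or knockdown replicate 3 also left 0 of the 3, and leaving out knockdown replicate 2 left 1. SRSF1 was further lost without control replicate 2 and SRSF3 without control replicate 3. Over all alternatives the adjusted p ranged from 0.0171 to 0.192 for SRSF1, from 0.00702 to 0.335 for SRSF3 and from 0.00237 to 0.372 for SRSF9.

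Strand mattered for a pair of genes that overlap a neighbour on the opposite strand. The counts used here kept the strand opposite to read 1, which held 93.9% to 94.1% of all stranded counts in each library. Without regard to strand, SRSF9, whose exons share 1725 bases with those of GATC, kept only 35.3% to 38.8% of these counts, because a read lying in both genes was assigned to neither. Its log2 fold change was then -0.059 and no longer passed. SRSF2 (ENSG00000161547, chromosome 17) shares 823 bases with MFSD11 and kept 60.8% to 64.2%. SRSF2, a splicing factor recurrently mutated in myeloid neoplasms, had 333, 309 and 326 CPM in control and 304, 307 and 314 CPM in knockdown libraries, with overlapping groups and an adjusted p of 0.169. Without regard to strand its log2 fold change moved from -0.066 to -0.11 and passed (adjusted p = 0.0265), as it did without control replicate 2 (adjusted p = 0.0212), and over all alternatives the adjusted p from edgeR and DESeq2 ran from 0.0212 to 0.949. For the other 8 genes the unstranded count was 99.8% to 103.6% of the stranded one. On their own strand, SRSF1 shares 1890 exon bases with ENSG00000266086 and SRSF6 shares 654 with ENSG00000288000, and a read lying in both genes would be left out of either count. These neighbours had 0 counts in each library, but reads lying in both genes would not appear there, so the loss was not measured. SRSF9 likewise shares 124 bases with NRAV, a long noncoding RNA with at most 315 counts in a library and a log2 fold change of -0.20. Pseudogenes named after the SR genes held at most 20 counts in any library, the highest being SRSF6P2, although reads that fit a gene and its copy equally well had been discarded.

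SRSF10 (ENSG00000188529, chromosome 1), which represses splicing when it loses its phosphates during heat shock and mitosis, had 237, 231 and 251 CPM in control and 241, 251 and 256 CPM in knockdown libraries. The groups overlapped and the adjusted p was 0.275, with a 95% interval from 2.17% below to 10.5% above the control level. It passed only with library size alone as scaling (log2 fold change 0.12, adjusted p = 0.0314). SRSF12, a low-abundance relative of SRSF10, had 67, 72 and 72 counts in control and 69, 56 and 44 counts in knockdown libraries. On the log2 scale this was -0.41 (SE 0.16, edgeR adjusted p = 0.0447), a call that DESeq2 did not make (adjusted p = 0.156). The call was also lost with library size alone, without a filter, with the replicate number as a block, and without control replicate 2, control replicate 3 or any of the knockdown libraries, and the adjusted p ranged from 0.0266 to 0.156 over all alternatives. SRSF8, which arose as a copy of SRSF2, had 21.0, 22.7 and 22.2 CPM in control and 24.2, 23.5 and 24.4 CPM in knockdown libraries, with an adjusted p of 0.0537. These groups did not overlap, and SRSF8 passed in 3 of 13 alternatives.

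Levels of different genes were compared per kilobase of the MANE Select transcript. On this scale SRSF2 was the most abundant of the 10 genes in control cells, at 171 ± 6.52 CPM per kb (SD, n = 3), followed by SRSF9 at 133 ± 4.46, SRSF5 at 111 ± 10.1 and SRSF3 at 106 ± 3.39. The libraries of SRSF5 and SRSF3 overlapped, so this pair was not separated. SRSF7 (85.2 ± 4.08) and SRSF11 (78.7 ± 4.01) were not separated either. SRSF4 came next at 71.1 ± 2.95 and SRSF6 followed at 40.8 ± 3.92. SRSF10 (31.3 ± 1.33) and SRSF1 (27.8 ± 1.34 CPM per kb, SD, n = 3 for each) were the lowest. SRSF8 and SRSF12 lay far below, at 5.09 and 0.629 CPM per kb. The levels of genes that share exon bases with a same-strand neighbour, above all SRSF1 and SRSF6, may be too low. Reads in such bases were left out while the full length was used, so the places of these genes in the order are uncertain.

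In knockdown cells SRSF5, at 134 ± 3.87 CPM per kb, stood above SRSF9, at 122 ± 1.77 (SD, n = 3 each), with no overlap, whereas in control cells the order of this pair was the opposite. SRSF6 reached 50.8 ± 1.66 CPM per kb and kept its rank of 8 among the 10. The order depends on the length used. With all annotated exons of a gene merged, SRSF2 was still first in control cells, at 108 CPM per kb, but SRSF3 (62.7) and SRSF7 (49.6) then stood above SRSF9 (38.8).

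**Figure D3:**
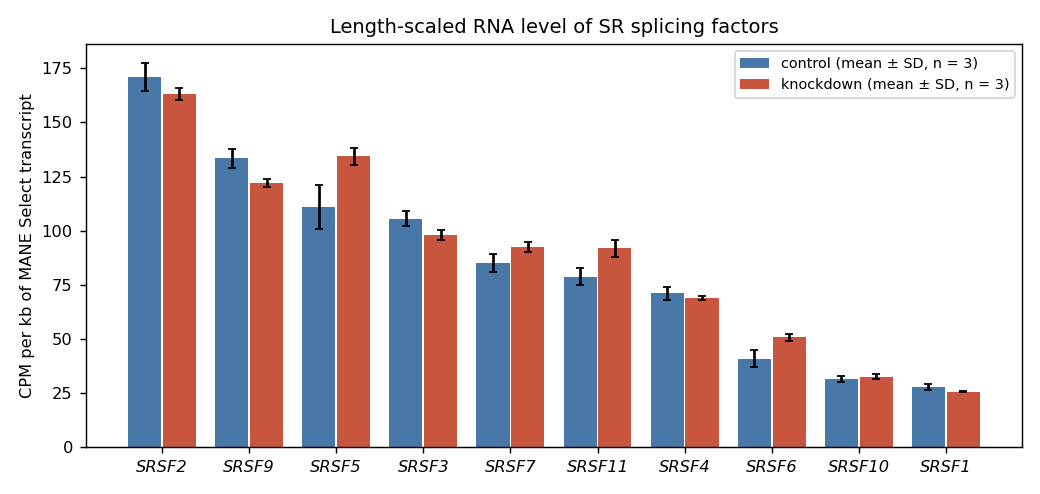
CPM per kilobase of MANE Select transcript (y axis, from 0) for the 10 SR genes, ordered by their level in control cells; bars give the mean and error bars the SD of 3 libraries, control in blue and knockdown in red. SRSF2 is highest in both groups, and SRSF5 passes SRSF9 in knockdown cells.

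Summed over the 10 genes, the level was 2330 ± 76.7 CPM in control and 2410 ± 32.6 CPM in knockdown cells (SD, n = 3 each; exact permutation test, two-sided, p = 0.3, where the smallest p that 3 against 3 libraries allow is 0.1). Within the family, SRSF6 made up 7.55%, 7.17% and 8.13% of the family's counts in control and 9.01%, 9.14% and 9.35% in knockdown libraries. SRSF11 moved from 13.4 ± 0.274% to 15.1 ± 0.424%, and SRSF3, the gene with the most counts, from 19.2 ± 0.289% to 17.2 ± 0.627% (SD, n = 3 each). Such shares do not depend on the scaling between libraries. The log2 ratio of SRSF6 to the geometric mean of the other 9 genes was -0.34, -0.43 and -0.22 in control and -0.063, -0.036 and 0.0016 in knockdown libraries. The difference was 0.29 (exact permutation test, two-sided, p = 0.1, the smallest possible), and it stayed between 0.25 and 0.35 when each library was left out in turn.

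Among 11177 other tested genes (mean normalized count at or above 100), the pattern most like that of SRSF6 over the 6 libraries was that of SRSF5. Likeness was measured as the root mean square distance between log2 CPM values centred on their own mean, which was 0.019 for SRSF5. The next were FRG1CP (0.022), a pseudogene transcript, and CCNL1 (0.025), which encodes cyclin L1, a partner of CDK11 in nuclear speckles. EPSTI1 (0.030) and CDCA4 (0.030) followed. In each of these genes control replicate 2 was the lowest library and control replicate 3 the highest of the controls, the same order as in SRSF6. Of the other family members, SRSF11 ranked 153rd in distance and SRSF7 1346th, while SRSF1 ranked 7479th. This is a description of 6 libraries, in which the shared difference between groups sets much of the distance.

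**Figure D4:**
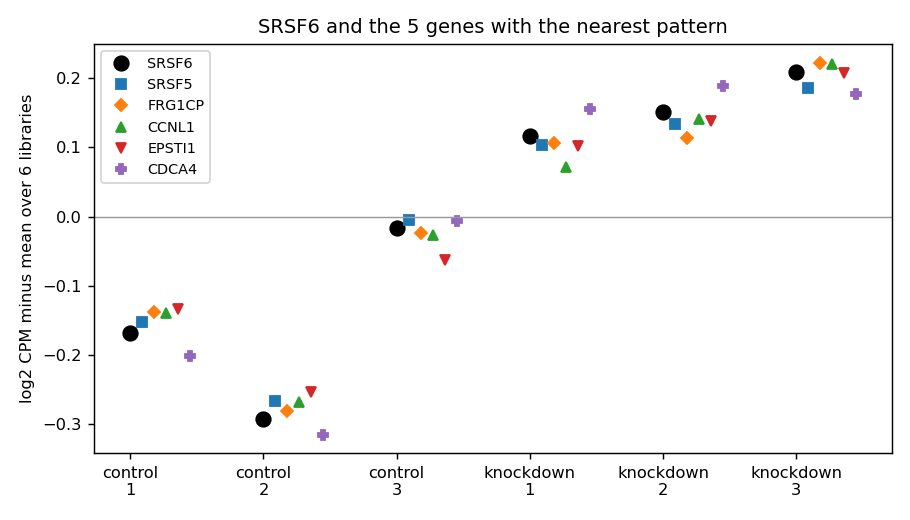
Log2 CPM minus its mean over the 6 libraries (y axis) in each library (x axis) for SRSF6 (black circles) and the 5 genes with the nearest pattern, drawn side by side within a library. All 6 genes are lowest in control replicate 2 and lie above their own mean in each knockdown library.

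Genes that act with or against SR proteins were examined from lists chosen by function. Among 10 kinases and import factors of SR proteins, 9 were tested, of which 3 were higher, 1 was lower and 5 did not pass, near the 48.3% of all genes that passed. CLK2, which phosphorylates SR proteins in the nucleus, rose from 15.5 ± 2.14 to 22.5 ± 0.856 CPM (SD, n = 3 each), or 0.53 on the log2 scale (edgeR adjusted p = 0.000162). CLK3 of the same family also rose (log2 fold change 0.26, adjusted p = 0.00178). The others of that family, CLK1 (0.067, edgeR adjusted p = 0.293) and CLK4 (0.14, edgeR adjusted p = 0.0925), did not pass. SRPK2, a kinase that acts on SR proteins mostly in the cytoplasm, fell from 90.8 ± 3.29 to 74.5 ± 1.22 CPM (SD, n = 3 each), or -0.29 on the log2 scale (adjusted p = 6.01e-05). Its paralog SRPK1 did not pass (0.035, adjusted p = 0.476). CLK2 passed the fold change cutoff only with library size alone as scaling (0.59).

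SR-related proteins share the arginine- and serine-rich stretch but not the domain structure of SR proteins. All 30 were tested, and 18 were higher, 2 were lower and 10 did not pass. Their median was 0.12 on the log2 scale. The background was 23.3% of all genes for higher and 25% for lower. Without knockdown replicate 1 the count of higher genes was 11, and with library size alone it was 23. CCNL2, which encodes cyclin L2, was the only DE gene of the list. It rose from 165 ± 27.6 to 253 ± 15.0 CPM (SD, n = 3 each), or 0.61 on the log2 scale (SE 0.090, edgeR adjusted p = 0.000102). It fell under the fold change cutoff without control replicate 2 (0.47) or knockdown replicate 3 (0.56). CLASRP (0.57), SON (0.53) and ARGLU1 (0.52) came close to the cutoff and passed it with library size alone. CLASRP and ARGLU1 also passed it in another alternative, where they reached 0.69 and 0.60. CLASRP, SON and ARGLU1 are named here after their values were seen. SON, which organises nuclear speckles, had 375, 409 and 362 CPM in control and 545, 534 and 579 CPM in knockdown libraries, a gap between groups wider than the spread in either. The lower genes were TRA2B (-0.14) and SCAF8 (-0.13), and TRA2B is itself a sequence-specific splicing activator whose paralog TRA2A was higher (0.13).

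The hnRNPs, a group of RNA-binding proteins that often oppose SR proteins at splice sites, included 24 tested genes, of which 1 was higher, 11 were lower and 12 did not pass, with a median log2 fold change of -0.079. HNRNPAB was the one that rose (0.15, adjusted p = 0.00259). RALY, a relative of hnRNP C, had the deepest fall, from 137 ± 4.91 to 98.6 ± 1.09 CPM (SD, n = 3 each), or -0.47 on the log2 scale (edgeR adjusted p = 4.80e-07). HNRNPH3 was next (-0.24, adjusted p = 8.03e-05). With library size alone, 6 hnRNPs were lower and 2 were higher. Over all genes tested, 25% were lower and 23.3% higher. Among the abundant genes described above, 45.6% were lower and 16.2% higher, with a median of -0.085. The hnRNP list as a whole was thus near the abundant genes.

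**Figure D5:**
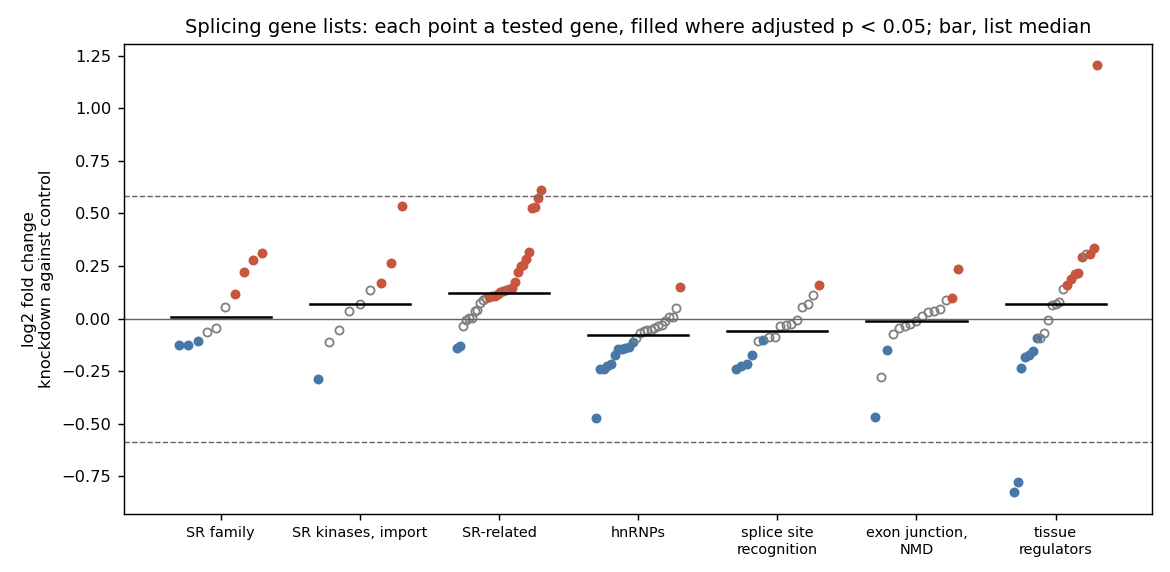
Log2 fold change (y axis, knockdown against control) of each tested gene in 7 lists of splicing genes (x axis), filled in red (higher) or blue (lower) where the adjusted p was under 0.05; black bars are list medians and dashed lines the 1.5-fold cutoff. SR-related genes lie mostly above 0 (median 0.12) and hnRNPs mostly below (median -0.079), while the SR genes spread to both sides. The median of all tested genes at least as abundant as SRSF1 was -0.085, near that of the hnRNPs.

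Of the core factors that recognise splice sites, 16 were tested from a list of 17. Among them 1 was higher, 5 were lower and 10 did not pass, beside 23.3% higher and 25% lower over all genes. SF3A2 of the U2 particle was higher (log2 fold change 0.16, adjusted p = 0.00813), and its partner SF3B3 lower (-0.22, adjusted p = 9.74e-05). SNRPC, a protein of the U1 particle that stabilises its contact with the splice site, was lower too (-0.24, adjusted p = 0.000259, all by edgeR). U2AF1 was not tested, as it had 2 to 7 counts per library. Only uniquely mapped reads had been kept, so a count this low need not mean that its RNA was absent. For the machinery that reads premature stop codons, 2 of 15 genes were higher, 2 were lower and 11 did not pass, while 48.3% of all genes passed. EIF4A3, the helicase at the centre of the exon junction complex, fell from 136 ± 1.67 to 98.2 ± 0.892 CPM (SD, n = 3 each), or -0.47 on the log2 scale (edgeR adjusted p = 2.38e-07). UPF3A, an NMD factor, was higher (0.23, adjusted p = 0.000231). The small changes of CASC3 (0.096) and SMG8 (-0.15) were not called by DESeq2, nor in several analyses with a library left out.

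Of the listed regulators of splicing, not all of which are tissue-specific, 23 were tested from a list of 28. Among them 8 were higher, 7 were lower and 8 did not pass, beside 48.3% of all genes called, and 3 were DE, a share near the 11.7% of all genes. CELF2, which binds GU-rich introns, rose from 17.9 ± 1.46 to 41.3 ± 1.80 CPM (SD, n = 3 each), or 1.20 on the log2 scale (SE 0.062, edgeR adjusted p = 8.67e-09). MBNL1, a muscleblind protein that often acts against CELF proteins, fell from 216 ± 9.66 to 122 ± 0.665 CPM (SD, n = 3 each), or -0.83 on the log2 scale (SE 0.040, edgeR adjusted p = 4.86e-09). RBM47, an RNA-binding protein of epithelia, fell from 99.4 ± 1.74 to 58.1 ± 2.11 CPM (SD, n = 3 each), or -0.78 on the log2 scale (SE 0.040, edgeR adjusted p = 9.67e-09). Each of these changes was larger than that of any SR gene, and each stayed past both cutoffs under all 13 alternatives. ESRP1, the epithelial splicing regulator, did not reach the count needed for testing.

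Matches to the siRNA in the SR genes were also looked up, since a guide strand can lower other transcripts through its seed, bases 2 to 8. The guide strand of siRNA LINC01133a is shown 5′ to 3′ with the seed in capitals, without its overhang.
Guide: uCCAUUCUcagguaacuuc
Its seed pairs with AGAATGG, a word that 17.1% of the 12532 tested genes with an annotated 3′ UTR hold there, whatever the length of that UTR. Of the 10 SR genes, SRSF1 and SRSF10 hold it once each, and SRSF8 and SRSF12 hold it too. The bases opposite the guide are printed with the matched bases in capitals.
SRSF1: ctgttttgttcAGAATGGg
SRSF10: caatgataaatAGAATGGt
SRSF8: gggctgagtgcAGAATGGA
SRSF12, first site: tacacatttgaAGAATGGt
SRSF12, other site: gtgtttgtgatAGAATGGt
The first 3 lie at chr17:58005303-58005321 (minus strand), chr1:23968041-23968059 (minus strand) and chr11:95070642-95070660 (plus strand) of GRCh38. SRSF8 has the longer match of 8 bases, found in 5.78% of these genes, and its level was not lower in knockdown cells. SRSF1 was lower, SRSF10 did not pass, and SRSF3 and SRSF9, which were lower, do not hold the guide's word in the 3′ UTR. Other parts of the transcripts were not searched. SRSF12 holds the word at 2 places, chr6:89097810-89097828 and chr6:89097317-89097335 (minus strand), and was lower with the reservations given above. The seed of the other siRNA strand pairs with GTAACTT, which 13.6% of these genes hold in the 3′ UTR, again whatever its length. It is found in 5 of the 10 SR genes, namely SRSF1, SRSF2, SRSF3, SRSF6 and SRSF11. These include genes that were lower, higher and not called. SRSF8 holds this word too, with the longer match of 8 bases that 3.36% of these genes have. A match of letters does not show that the siRNA acted on the transcript. Whether seed matches had a part in any of these changes was not tested.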

How the data were processed

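Poly-A RNA of 6 libraries of 12Z cells was sequenced. The authors aligned the reads with STAR 2.7.6a to GRCh38.p13 with GENCODE v36, kept uniquely mapped reads, and deposited raw counts per gene, not normalized. Column 4 of these counts was used. Names, coordinates, lengths and sequences came from GENCODE v44 of the same assembly, since v36 was not used here, and the siRNA from the study's list of designed oligos. Genes were filtered by filterByExpr (minimum count 10), scaled by TMM and compared with edgeR 4.0.16 in R 4.3.3, modelling condition alone. The standard error is the log2 fold change divided by the root of F, and CPM use TMM library sizes. The fit was tested on simulated data whose smallest changes were slightly larger than that of SRSF6, the largest of the 10 SR genes. Calling these smallest changes was not required for the fit to pass. How well it finds changes as small as those of the other SR genes was not tested. The 10 genes and all gene lists were chosen with earlier results of these data known. Named list genes were those that were DE, or else the 2 highest and 2 lowest that passed, with the 5 genes nearest to SRSF6 in pattern. Alternatives were DESeq2 1.42.0, RLE size factors, library size alone, no filter, 10 counts in every library, unstranded counts, the replicate number as a block, and each library left out. Precision is limited by 3 libraries per group.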

Additional observations from a re-analysis of the deposited data

How the results depend on the processing

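The calls of SRSF5, SRSF6 and SRSF11 passed under all 13 alternatives, and no alternative made any of the 10 SR genes DE. With library size alone, SRSF1 (-0.061), SRSF3 (-0.044) and SRSF9 (-0.066) no longer passed, SRSF10 did (0.12), SRSF4 changed sign (0.020) and the count of lower SR genes went from 3 to 0. That scaling moved the share of higher calls among all genes from 48.3% to 61.5%. Unstranded counts brought SRSF2 past the threshold (-0.11) and lost SRSF9 (-0.059). Leaving out single libraries gave log2 fold changes of -0.14 to -0.086 for SRSF1, -0.099 to -0.044 for SRSF2, -0.12 to -0.078 for SRSF3, -0.072 to -0.017 for SRSF4, 0.081 to 0.15 for SRSF7, -0.15 to -0.10 for SRSF9 and 0.029 to 0.092 for SRSF10. SR genes called lower then numbered 0 to 3 and those called higher 3 to 4. With merged exon lengths, the control level in CPM per kb was 108 for SRSF2, 38.8 for SRSF9, 30.9 for SRSF5, 62.7 for SRSF3, 49.6 for SRSF7, 36.8 for SRSF11, 18.6 for SRSF4, 36.3 for SRSF6, 20.2 for SRSF10 and 25.7 for SRSF1.

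Control and knockdown samples share only a replicate number. Deviations from the group means of same-numbered libraries correlated at -0.015, 0.0049 and 0.057, and not every library correlated best with its own number. With the replicate block, 4 SR genes were higher and 3 lower, and SRSF6 had a log2 fold change of 0.32. Gene counts cannot show splicing, protein level or phosphorylation, and a single siRNA was sequenced.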
